A study of Mus musculus with 12 samples.

Results

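Imprinted genes are the subject here, in embryonic stem (ES) cells of the mouse and in embryoid bodies, the aggregates such cells form when they differentiate. The members are 37 named imprinted genes of the 54537 genes in the table, chosen by symbol from general knowledge of the mouse. The rule itself uses no measured value, but the members were chosen with earlier results of these data known. RNA was measured in a wild type line (WT) and in the knockout line WT+1343KO-a14 (1343KO below) at days 0, 8 and 16, with 2 libraries in each of the 6 groups. Day 0 cells were ES cells kept with serum and leukaemia inhibitory factor, the cytokine that holds them undifferentiated. Days 8 and 16 were floating embryoid bodies made from the same lines without that factor. The labels do not say which gene its number stands for, nor what the leading WT+ means, and the 1343KO line is 1 clone. Nothing says that the 2 libraries of a group came from separate cultures, so p-values measure the spread between libraries, which may be technical. The series title concerns long noncoding RNA knockouts and names the small nucleolar RNA SNORA73 beside exit from pluripotency. The question put to these genes is how they changed on that path in each line.

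An imprinted gene is transcribed mainly from the copy inherited from 1 parent, through DNA methylation laid down in the egg or the sperm and kept after fertilisation. Many imprinted genes act in fetal growth, placenta and brain, and they often lie in clusters that share a control region and a noncoding RNA. KRAB zinc finger proteins such as ZFP57, which binds a methylated hexamer, hold these methylation marks with TRIM28 while the rest of the early genome is demethylated. The deposited values do not tell the parental copies apart, so they give total RNA and not imprinting. By textbook assignment 21 members are paternally expressed, 12 maternally, and 4 depend on the tissue. Of the 37 members 16 lie on chromosome 7, 6 on chromosome 6, 5 on chromosome 12, 3 on chromosome 2, 2 each on chromosomes 11 and 17, and 1 each on chromosomes 10, 15 and 18.

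The starts of 4 members whose RNA rose in WT embryoid bodies are shown, since they lie at or near promoters known to carry parental methylation. Each is the 250 bases before a RefSeq transcript start in GRCm38.p6, written 5′ to 3′ on the gene's own strand. Capitals mark the hexamer TGCCGC, or GCGGCA on the other strand, which ZFP57 is known to bind.
Plagl1, chr10:13090582-13090831 (+): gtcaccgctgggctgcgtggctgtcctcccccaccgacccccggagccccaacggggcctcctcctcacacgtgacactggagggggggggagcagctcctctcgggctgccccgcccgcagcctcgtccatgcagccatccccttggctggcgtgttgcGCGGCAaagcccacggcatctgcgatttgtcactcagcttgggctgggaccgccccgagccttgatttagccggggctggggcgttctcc
Meg3, chr12:109540746-109540995 (+): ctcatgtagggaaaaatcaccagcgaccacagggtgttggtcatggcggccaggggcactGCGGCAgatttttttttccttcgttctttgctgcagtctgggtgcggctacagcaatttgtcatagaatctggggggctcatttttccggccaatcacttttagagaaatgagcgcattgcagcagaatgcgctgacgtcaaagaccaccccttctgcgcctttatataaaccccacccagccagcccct
Mest, chr6:30737800-30738049 (+): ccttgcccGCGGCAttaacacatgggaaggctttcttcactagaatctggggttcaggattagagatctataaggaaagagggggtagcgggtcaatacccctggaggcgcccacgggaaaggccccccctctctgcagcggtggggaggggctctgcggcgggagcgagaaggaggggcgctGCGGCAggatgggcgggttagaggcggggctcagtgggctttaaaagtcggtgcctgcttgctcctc
Peg3, chr7:6730420-6730669 (-): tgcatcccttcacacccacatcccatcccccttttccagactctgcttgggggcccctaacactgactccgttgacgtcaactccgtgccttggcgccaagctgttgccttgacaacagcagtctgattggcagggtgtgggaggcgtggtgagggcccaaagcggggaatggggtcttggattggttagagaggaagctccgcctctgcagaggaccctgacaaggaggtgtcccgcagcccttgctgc
The Mest stretch held 2 hexamers, the Plagl1 and Meg3 stretches 1 each, and the Peg3 stretch 0. These 4 do not stand for all members that rose in WT: the stretches of Nnat and Gnas, not shown, held 0. Peg3 and Usp29 are transcribed away from each other, and the Usp29 start lies inside the Peg3 stretch. RefSeq windows of 300 bases, 250 before to 50 after a start, were matched by symbol for 30 of the members (45 windows). The hexamer was in 11 of these windows (24.4%), against 11.6% of all 32817 windows. The Mest windows from chr6:30737800 and chr6:30737803 overlap almost fully, hold the same hexamers and were both counted. The members' windows held a median of 12 CpG dinucleotides against 7 over all windows, with an observed to expected ratio of 0.590 against 0.383. A match is a description of letters, and neither binding nor methylation was measured.

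Levels are in FPKM, fragments scaled by transcript length and by library size. Libraries held an estimated 4822000 to 8192000 fragments, and in each between 12909 and 14069 genes were at 1 FPKM or more. Snhg3, the host gene of the SNORA73 copies, was at 8.31 to 61.1 FPKM in the WT libraries and at 0 to 1.57 in those of the 1343KO line. Every library is labelled as embryonic stem cells, also those of days 8 and 16. The summed level of 7 pluripotency markers (Pou5f1, Sox2, Nanog, Zfp42, Esrrb, Klf4, Tdgf1) went from 1873 and 1890 FPKM at day 0 in WT to 95.0 and 97.5 at day 8 and 73.2 and 66.8 at day 16. The 1343KO sums were 2084 and 1999, then 1212 and 1204, then 1059 and 1078. The labelled cell type thus did not match its markers in the WT embryoid bodies.

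Together the 37 members took 0.209% and 0.225% of the summed FPKM in WT ES cells, then 1.44% and 1.43% at day 8, and 2.07% and 2.12% at day 16. Their share among 1343KO libraries was 0.248% and 0.236% at day 0, 0.367% and 0.373% at day 8, and 0.450% and 0.447% at day 16. The members' RNA thus took a larger share in embryoid bodies than in ES cells of both lines, and the lines did not overlap at days 8 and 16. In bulk RNA, fewer cells of a type and less RNA per cell cannot be told apart, and this holds for each result below.

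**Figure D1:**
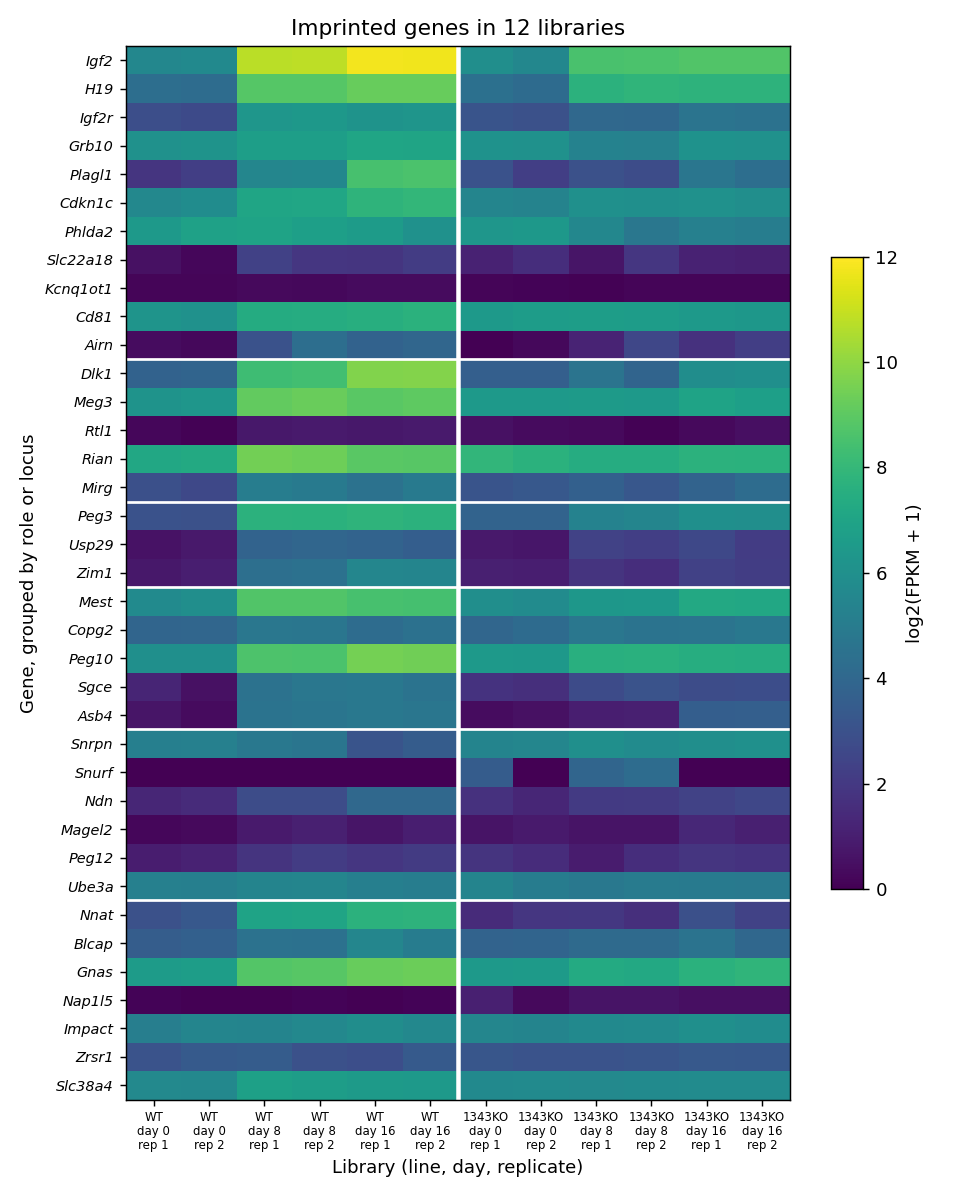
Level of each of the 37 members (rows, by role or locus, separated by white lines) in each of the 12 libraries (columns, WT left and 1343KO right), as log2(FPKM + 1) from 0 to 12. Igf2 is the brightest row in WT at day 16, at 3515 and 3477 FPKM, and stays at 434 and 433 in the 1343KO line.

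A member was tested if it had at least 1 FPKM in at least 2 libraries, as 34 of the 37 did, among 16289 genes. Kcnq1ot1, Rtl1 and Nap1l5 were not tested. Magel2, Usp29, Airn and Asb4 passed this filter only through later libraries, being under 1 FPKM in all 4 day 0 libraries, and 25 members reached 1 FPKM in all 12. Snurf reached 1 FPKM in 3 libraries, all of the 1343KO line, and had both libraries there in its day 8 group alone. It thus entered the test through the group where it is high, and its call there is not used as a result. Magel2 had both libraries at 1 FPKM in the 1343KO day 16 group alone. Counts over the 34 are therefore given beside those of a fit with no filter, which tested all 37 of the members among 27528 genes. Changes are differences of log2(FPKM + 1) with their standard error (SE), folds are on that scale, and a call is an adjusted p under 0.05 in limma with Benjamini-Hochberg adjustment over all genes tested.

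In WT, most members rose as ES cells became embryoid bodies. At day 8, 28 of the 34 tested members had risen, 1 had fallen (Snrpn) and 5 did not pass, with a median change of 2.17 against 0.00 over all genes tested. Of all genes tested 26.8% rose and 24.5% fell in this comparison. At day 16, 29 had risen, 1 had fallen and 4 did not pass (median 2.39 against 0.02), where 32.7% of all genes rose and 28.5% fell. With no filter the counts were 29 higher and 1 lower of 37 at day 8, and 31 higher and 1 lower at day 16, where 15.8% and 20.9% of all 27528 genes rose and 13.9% and 16.6% fell. Risen members made up 14 of 18 tested paternally expressed members and 11 of 12 maternally expressed ones at day 8, and 15 of 18 and 11 of 12 at day 16.

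The 1343KO line went the same way with fewer members and smaller changes. At day 8, 17 of the 34 had risen, 3 had fallen (Grb10, Phlda2, Rian) and 14 did not pass, with a median of 0.48 against 0.07, where 15.0% of all genes rose and 8.51% fell. At day 16, 22 had risen, 2 had fallen (Phlda2, Ube3a) and 10 did not pass (median 0.72 against 0.11), where 18.2% of all genes rose and 8.60% fell. With no filter 13 rose and 3 fell of 37 at day 8, and 20 rose and 1 fell at day 16, where 7.80% and 9.58% of all genes rose and 4.59% and 4.79% fell. The rises at day 8 numbered 11 without the 1343KO day 0 replicate 2 or without the day 8 replicate 1. Scaling moved the split over all genes: rises were 63.8% of the calls at day 8 and 67.9% at day 16, against 52.1% and 50.9% with median-of-ratios scaling, where the median of all genes at day 16 was 0.00.

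Between the lines, few members differed as ES cells and most did as embryoid bodies. At day 0, 4 members were higher in the 1343KO line, 1 was lower and 29 did not pass, with a median of 0.15 against 0.00, where 1.59% of all genes were higher and 2.12% lower. At day 8 there were 26 lower members, 1 higher (Snrpn) and 6 without a call. Snurf, tested only through its high 1343KO libraries, is left out of these counts but is in the median (-1.50 against 0.06). Of all genes 23.3% were higher and 19.6% lower at day 8. At day 16 there were 25 lower and 2 higher members (Snrpn and Copg2), and 7 without a call (median -1.25 against 0.07), where 28.5% were higher and 24.1% lower. With no filter 4 were higher and 1 lower at day 0, 2 (Snurf among them) and 27 at day 8, and 1 and 27 at day 16. Without the filter 0.926%, 12.8% and 16.2% of all genes were higher at days 0, 8 and 16, and 1.06%, 11.4% and 15.4% lower. Lower members made up 13 of 18 paternally and 10 of 12 maternally expressed ones at day 8, and 12 and 10 at day 16. Rises made up 54.3% of calls over all genes at day 8, and 41.0% with the values rescaled to an equal sum per library (TPM scaling).

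The difference between the lines' changes was tested itself, as an interaction. From day 0 to day 8, 26 of 34 members rose less, or fell more, in the 1343KO line, 1 went the other way (Snrpn) and 7 did not pass, with a median of -1.44 against 0.06. Over all genes 12.7% were on the lower side and 15.6% on the higher, and higher calls were 55.0% of the calls, against 40.8% with TPM scaling. From day 0 to day 16 these counts were 24, 1 (Snrpn) and 9 (median -1.53 against 0.08), where 18.2% of all genes were on the lower side and 21.7% on the higher. With no filter 25 of 37 were on the lower side and 1 on the higher at each time, where 6.99% and 10.9% of all genes were on the lower side and 8.00% and 11.8% on the higher. The comparisons with day 0 and between the lines share libraries, so they are not independent of each other.

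**Figure D2:**
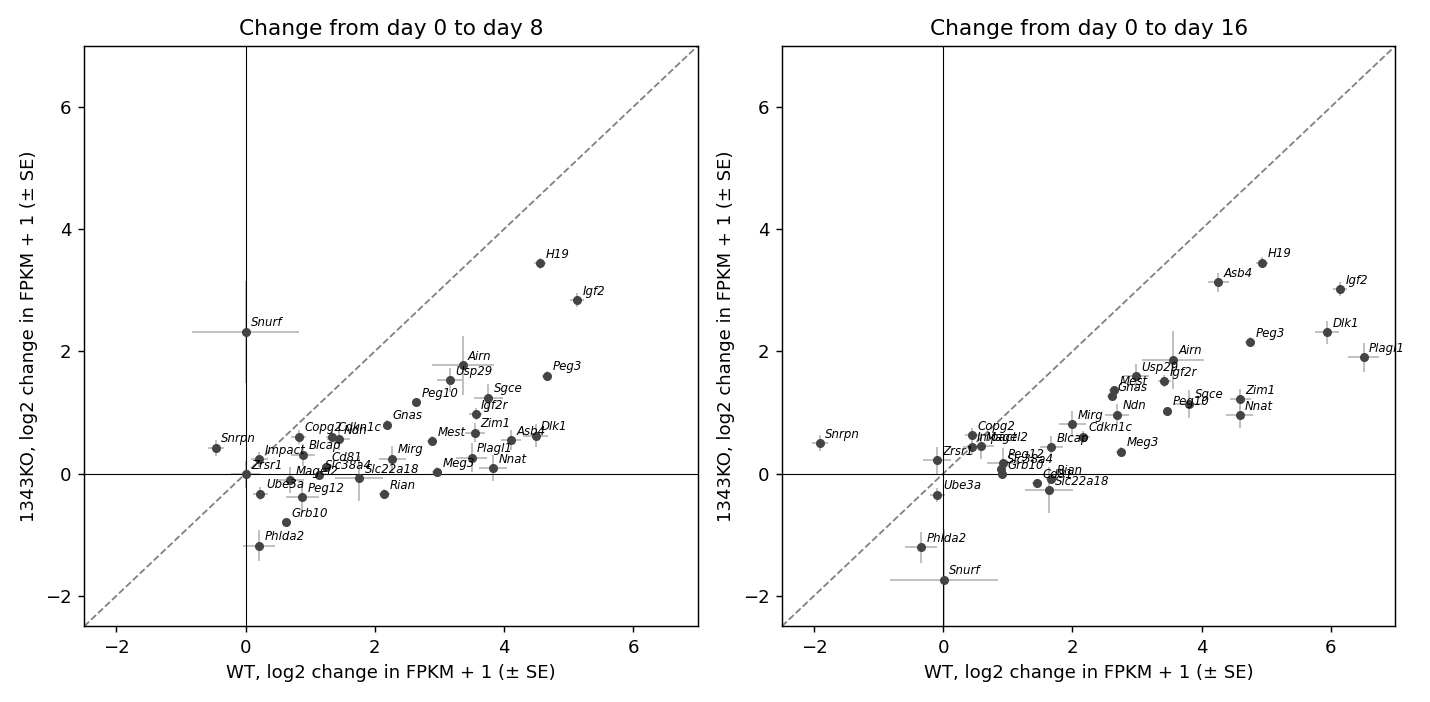
Change of each tested member from day 0 in WT (x axis) against its change in the 1343KO line (y axis), in log2(FPKM + 1) with SE bars, to day 8 (left) and day 16 (right), with a dashed line of equal change. Most points lie below the line, while Snrpn lies left of it with a WT change of -0.46 at day 8 and -1.91 at day 16.

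Igf2, the fetal insulin-like growth factor and a paternally expressed gene, had the highest FPKM of the members in all 8 embryoid body libraries. It was at 46.0 and 51.6 FPKM in WT at day 0, 1728 and 1759 at day 8, and 3515 and 3477 at day 16, where it ranked 7 and 5 among all genes. The 1343KO line had 60.3 and 45.6 at day 0, 369 and 393 at day 8, and 434 and 433 at day 16, with a rank of 154 in both day 16 libraries. The lines overlapped at day 0 and lay apart at both later days. The rise to day 16 was 6.14 ± 0.11 (70.3-fold, adjusted p = 1.18e-09) in WT and 3.02 ± 0.11 (8.13-fold, adjusted p = 6.33e-07) in the 1343KO line, and the changes differed by -3.11 ± 0.15 (adjusted p = 1.49e-06). Igf2 (chr7:142650766-142666816, minus strand) shares 3596 exonic bases with the gene model Gm49394 on its strand, which did not exceed 2.32 FPKM in any library.

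H19, the maternally expressed noncoding RNA that shares enhancers with Igf2, was at 18.9 and 17.7 FPKM in WT at day 0, 460 and 449 at day 8, and 583 and 595 at day 16. The 1343KO libraries held 20.8 and 17.3, then 206 and 227, then 218 and 216. It rose in both lines, 23.6-fold in WT and 10.9-fold in the 1343KO line at day 8, with no overlap between the lines at days 8 and 16. The 1343KO line was lower by -1.07 ± 0.09 at day 8 (adjusted p = 1.52e-05) and by -1.44 ± 0.09 at day 16 (adjusted p = 1.29e-06). An H19 exon holds the hairpin of miR-675, shown as RefSeq gives it with the seed (bases 2 to 8) in capitals, because the miRNA is cut from H19 itself.
mmu-miR-675-5p: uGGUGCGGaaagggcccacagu
mmu-miR-675-3p: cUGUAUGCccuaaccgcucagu
These arms lie at chr7:142577112-142577133 and chr7:142577078-142577099 (minus strand), and the level of the mature miRNA was not measured.

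The receptor and other brakes of this growth pathway come next. Igf2r, the receptor that carries IGF2 to lysosomes, was at 6.47 and 5.48 FPKM in WT at day 0, 77.4 and 84.7 at day 8, and 71.9 and 75.5 at day 16, against 7.61 and 6.99, 15.4 and 15.0, and 23.2 and 22.2 in the 1343KO line. It rose in both lines, and less in the 1343KO line (interaction -2.59 ± 0.14 at day 8, adjusted p = 6.11e-06). Airn, the antisense RNA known to silence the paternal Igf2r copy, was at 0.313 and 0.201 FPKM in WT at day 0, 7.24 and 19.1 at day 8, and 12.8 and 14.8 at day 16, and at 0 (listed) and 0.177, 1.31 and 4.90, and 2.31 and 3.67 in the 1343KO line. Its replicates lay far apart at day 8, and its lower level in the 1343KO line (-1.80 ± 0.48 at day 8, adjusted p = 0.0138) did not pass without WT day 8 replicate 2 (adjusted p = 0.107) or 1343KO day 8 replicate 1 (0.0989). At day 16 the Airn difference (-1.91 ± 0.48, adjusted p = 0.00810) did not pass without WT replicate 2 (0.0501) or 1343KO replicate 1 (0.0557). The gene lies on the other strand over part of Igf2r, and the strand of the libraries is not given in the sources used here.

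Grb10, an adaptor that dampens insulin and IGF receptor signalling, moved in opposite directions in the lines at day 8. Its WT levels were 66.5 and 70.1 FPKM at day 0, 105.6 and 105.6 at day 8, and 131.7 and 127.3 at day 16. Its 1343KO levels were 68.1 and 66.5, then 39.1 and 37.3, then 67.3 and 66.3, so that day 16 lay near day 0 (-0.01 ± 0.06, adjusted p = 0.938). From day 0 to 8 it rose by 0.62 ± 0.06 in WT (adjusted p = 2.45e-05) and fell by 0.80 in the 1343KO line (SE 0.06, adjusted p = 2.73e-05), with an interaction of -1.42 ± 0.08 (adjusted p = 9.32e-06).

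Plagl1, a paternally expressed zinc finger transcription factor, had the largest change from day 0 of the 34 tested members, at day 16 in WT. It was at 2.58 and 3.63 FPKM in WT at day 0, 45.0 and 45.3 at day 8, and 359 and 382 at day 16. The 1343KO line had 7.12 and 3.66, then 6.82 and 5.92, then 24.8 and 19.5, with day 8 inside the range of day 0. The WT rise to day 16 was 6.51 ± 0.24 (91.2-fold, adjusted p = 3.45e-08), and the lines then differed by -4.01 ± 0.24 (adjusted p = 1.13e-06). The 1343KO change at day 8 did not pass (0.26 ± 0.24, adjusted p = 0.490).

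Cdkn1c, the maternally expressed cyclin-dependent kinase inhibitor p57, rose in both lines. It was at 47.0 and 56.7 FPKM in WT at day 0, 130.4 and 134.5 at day 8, and 225.7 and 246.5 at day 16, against 42.9 and 39.9, 64.8 and 61.7, and 66.1 and 60.3 in the 1343KO line. The lines did not overlap on any day, but the day 0 difference did not pass (-0.31 ± 0.10, adjusted p = 0.129), while those at day 8 (-1.05 ± 0.10) and day 16 (-1.88 ± 0.10) did, with adjusted p = 3.12e-05 and 4.85e-07. Phlda2, a maternally expressed brake on placental growth, was at 87.1 and 114.8 FPKM in WT at day 0, 122.7 and 110.1 at day 8, and 93.7 and 66.2 at day 16, against 77.0 and 84.7, 46.5 and 26.5, and 35.9 and 33.0 in the 1343KO line. Its WT changes did not pass, and in the 1343KO line it fell by 1.18 to day 8 (SE 0.25, adjusted p = 0.00880) and by 1.21 to day 16 (SE 0.25, adjusted p = 0.00693). The fall of Phlda2 to day 8 did not pass without 1343KO day 0 replicate 2 (adjusted p = 0.0541).

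Cd81, a tetraspanin gene of the same chromosome 7 domain, was at 72.6 and 67.2 FPKM in WT at day 0, 164 and 172 at day 8, and 186 and 199 at day 16, and at 89.1 and 96.7, 102.0 and 97.9, and 85.2 and 81.3 in the 1343KO line. It rose in WT, stayed between 81.3 and 102.0 in the 1343KO line, and was higher there at day 0 but lower at both later days (-0.74 ± 0.07 and -1.20 ± 0.07). Slc22a18, a transporter gene of the same domain, was at 0.434 and 0.151 FPKM in WT at day 0, 4.04 and 2.77 at day 8, and 2.63 and 3.40 at day 16, against 1.22 and 2.01, 0.597 and 2.73, and 1.22 and 1.06 in the 1343KO line. It rose in WT (1.76 ± 0.37 at day 8, adjusted p = 0.00313). Its differences between the lines at days 8 and 16 did not pass (adjusted p = 0.0988 and 0.0677). Kcnq1ot1, the long antisense RNA of that domain, was between 0.0590 and 0.287 FPKM and was not tested. In all, 9 of the 10 tested genes of this growth group rose in WT at each time, and 9 of 10 were lower in the 1343KO line at each later day. Airn, counted among them, was tested only through its later libraries. Over all genes 26.8% and 32.7% rose in WT at days 8 and 16, and 19.6% and 24.1% were lower in the 1343KO line.

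**Figure D3:**
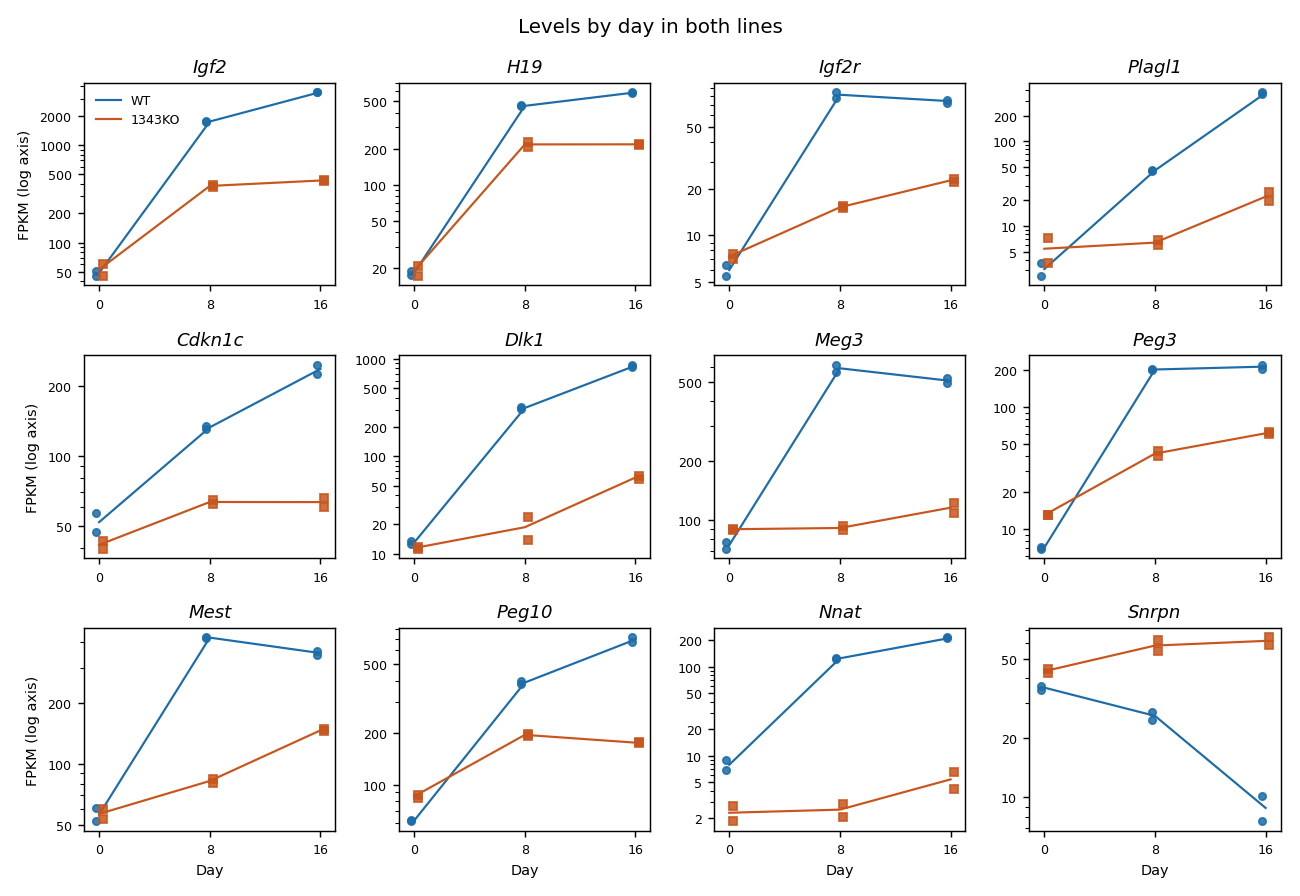
FPKM (log axis, with its own range in each panel) against day for 12 members, with points for the libraries and lines through the group means, WT in blue and 1343KO in orange. In 11 panels the WT line ends above the 1343KO line, and in the Snrpn panel it ends below, at 7.57 and 10.1 against 59.1 and 64.2 FPKM.

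At the Dlk1-Meg3 locus of chromosome 12, all 4 tested members were lower in the 1343KO embryoid bodies at each later day. Only Dlk1 among them is paternally expressed. Of all genes tested, 19.6% were lower in the 1343KO line at day 8 and 24.1% at day 16. Dlk1, a paternally expressed membrane protein related to Notch ligands, was at 12.6 and 13.4 FPKM in WT at day 0, 304 and 324 at day 8, and 837 and 877 at day 16. The 1343KO line had 11.2 and 11.6, then 23.7 and 13.7, then 58.2 and 62.9. The lines were near each other at day 0 and far apart later, with differences of -4.05 ± 0.19 at day 8 (adjusted p = 5.76e-07) and -3.80 ± 0.19 at day 16 (adjusted p = 4.05e-07). The small rise to day 8 in the 1343KO line (0.62 ± 0.19, adjusted p = 0.0421) did not pass in fits without either of its day 0 replicates (0.138 and 0.123), without its day 8 replicate 1 (0.101), or without any 1 of the other libraries except its day 8 replicate 2 (0.0583 to 0.0666).

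Meg3, the maternally expressed noncoding RNA of the locus, was at 71.6 and 77.7 FPKM in WT at day 0, 562 and 614 at day 8, and 493 and 522 at day 16. The 1343KO libraries held 90.1 and 89.6, then 93.2 and 89.1, then 122 and 109. The WT level rose early, while the 1343KO level at day 8 overlapped that of day 0 (0.02 ± 0.08, adjusted p = 0.894). The day 16 rise in the 1343KO line was 0.36 ± 0.08 (adjusted p = 0.00778) and did not pass without its day 16 replicate 1 (0.0594) or with median-of-ratios scaling (0.0586). The changes of Meg3 to day 8 differed by -2.94 ± 0.11 (adjusted p = 6.95e-07).

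Rian and Mirg, noncoding RNAs further along the same strand that host snoRNAs and miRNAs, behaved like Meg3 in WT. Rian was at 147 and 153 FPKM in WT at day 0, 686 and 651 at day 8, and 495 and 467 at day 16, against 237 and 201, 173 and 172, and 209 and 200 in the 1343KO line. It was higher in the 1343KO line at day 0 and lower later (-1.95 ± 0.08 at day 8, adjusted p = 2.23e-07). Its fall to day 8 in the 1343KO line (-0.34 ± 0.08, adjusted p = 0.0126) did not pass without the day 0 replicate 1 (0.0643), the day 8 replicate 1 (0.0501) or the day 8 replicate 2 (0.0592). Mirg was at 6.52 and 4.996 FPKM in WT at day 0, 32.6 and 30.3 at day 8, and 22.3 and 30.1 at day 16, against 7.72 and 8.95, 11.6 and 8.65, and 13.2 and 17.8 in the 1343KO line. Its day 16 difference (-0.72 ± 0.21, adjusted p = 0.0161) did not pass without WT replicate 2 (0.124) or 1343KO replicate 1 (0.118), and the day 8 difference was -1.56 ± 0.21 (adjusted p = 0.000291). RefSeq places 14 miRNA hairpins in Mirg and 3 in Rian on the same strand, and 6 on the strand opposite Rtl1, the retrotransposon-derived gene of the paternal copy, which stayed under 1 FPKM (0.0536 to 0.845) and was not tested.

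At the Peg3 locus of chromosome 7, Peg3 and Zim1 rose in both lines and less in the 1343KO line. Usp29 had the same pattern. Usp29 was under 1 FPKM in all 4 day 0 libraries and was tested only through later ones, so its rises are a description. Of all genes tested 26.8% rose in WT at day 8 and 32.7% at day 16, and 15.0% and 18.2% in the 1343KO line. The interaction was on the lower side for 12.7% of all genes to day 8 and 18.2% to day 16. Peg3, a paternally expressed zinc finger protein, was at 7.17 and 6.90 FPKM in WT at day 0, 208 and 200 at day 8, and 224 and 207 at day 16. The 1343KO libraries held 13.0 and 13.1, then 39.6 and 43.7, then 62.2 and 59.9. It started higher in the 1343KO line (0.80 ± 0.08, adjusted p = 0.000691) and ended lower, with an interaction of -3.07 ± 0.11 to day 8 (adjusted p = 6.95e-07) and -2.60 ± 0.11 to day 16 (adjusted p = 6.02e-07). Usp29, a deubiquitinase family gene on the other strand from the same start region, was at 0.523 and 0.774 FPKM in WT at day 0, 13.1 and 14.4 at day 8, and 13.0 and 10.96 at day 16, against 0.780 and 0.647, 4.22 and 3.68, and 5.03 and 3.40 in the 1343KO line. Zim1, the maternally expressed zinc finger gene beside Peg3, was at 0.698 and 1.02 FPKM in WT at day 0, 19.8 and 21.5 at day 8, and 44.5 and 43.0 at day 16, against 1.08 and 1.04, 2.55 and 2.02, and 4.01 and 3.56 in the 1343KO line. Zim1, of opposite parental origin to Peg3, thus rose in WT as well, by 4.60 ± 0.16 at day 16. The Usp29 rise was 2.98 ± 0.20, in a gene tested only through its later libraries. At day 16 the 1343KO line was lower by -1.33 ± 0.20 for Usp29 (adjusted p = 0.000358) and by -3.23 ± 0.16 for Zim1 (adjusted p = 3.39e-07). The smaller Zim1 rise in the 1343KO line to day 8 (0.67 ± 0.16, adjusted p = 0.0137) did not pass without its day 0 replicate 2 (0.0567) or day 8 replicate 1 (0.0764).

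On chromosome 6, 4 of 5 tested members were lower in the 1343KO embryoid bodies at each later day. Asb4, counted among them, was tested only through its later libraries. Of all genes tested 19.6% were lower there at day 8 and 24.1% at day 16. Mest, a paternally expressed hydrolase-family gene of mesoderm, was at 52.0 and 60.4 FPKM in WT at day 0, 422 and 424 at day 8, and 362 and 347 at day 16, against 59.7 and 53.6, 80.5 and 84.4, and 149 and 145 in the 1343KO line. The lines overlapped at day 0 and not later, and Mest differed by -2.34 ± 0.08 at day 8 (adjusted p = 1.24e-07) and -1.26 ± 0.08 at day 16 (adjusted p = 1.70e-06). Copg2, a coatomer subunit whose gene overlaps Mest on the other strand with 912 shared exonic bases, was at 13.9 and 14.4 FPKM in WT at day 0, 25.9 and 25.5 at day 8, and 18.2 and 21.3 at day 16, against 14.5 and 17.3, 26.3 and 23.0, and 23.5 and 26.7 in the 1343KO line. Copg2 rose in both lines at day 8 (0.82 ± 0.12 and 0.60 ± 0.12), and its interactions did not pass (adjusted p = 0.407 at day 8 and 0.459 at day 16). Its day 16 difference between the lines (0.33 ± 0.12, adjusted p = 0.0484) did not pass without any 1 of 9 libraries, with adjusted p up to 0.246 without WT day 16 replicate 1 and 0.235 without 1343KO day 16 replicate 2. The WT rise of Copg2 at day 16 did not pass without WT day 0 replicate 1 (0.0534) or day 16 replicate 2 (0.0791), nor its 1343KO rise at day 8 without day 0 replicate 1 (0.0526) or day 8 replicate 1 (0.0539).

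Peg10, a retrotransposon-derived gene needed in the placenta, was at 61.2 and 62.6 FPKM in WT at day 0, 398 and 383 at day 8, and 714 and 674 at day 16, against 87.1 and 83.8, 191 and 197, and 177 and 174 in the 1343KO line. It was higher in the 1343KO line at day 0 and lower at both later days, and its interaction grew from -1.46 ± 0.07 to -2.44 ± 0.07 (adjusted p = 4.21e-06 and 1.38e-07). Sgce, the epsilon-sarcoglycan gene that starts head to head with Peg10, was at 1.34 and 0.459 FPKM in WT at day 0, 22.2 and 25.8 at day 8, and 27.0 and 22.9 at day 16, against 2.42 and 2.03, 5.80 and 7.44, and 5.96 and 6.22 in the 1343KO line. Sgce was lower in the 1343KO line by -1.72 ± 0.23 at day 8 (adjusted p = 0.000266) and -1.87 ± 0.23 at day 16 (adjusted p = 0.000102). Asb4, a maternally expressed member of a family of ubiquitin ligase adaptors, came up late in the 1343KO line. It was tested only through its later libraries, so its rises are a description. Its levels were 0.591 and 0.272 FPKM in WT at day 0, 22.7 and 24.6 at day 8, and 26.8 and 25.6 at day 16, against 0.319 and 0.449, 0.992 and 1.05, and 10.99 and 11.3 in the 1343KO line. The lines differed by -3.61 ± 0.16 at day 8 (adjusted p = 3.91e-07) and by -1.16 ± 0.16 at day 16 (adjusted p = 0.000209). Its 1343KO rise was 3.13 ± 0.16 to day 16 (adjusted p = 2.65e-06), and that to day 8 (0.55 ± 0.16, adjusted p = 0.0338) did not pass without any 1 of 10 libraries (0.0503 to 0.126), the largest without 1343KO day 0 replicate 1.

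In the Snrpn-Ube3a domain of chromosome 7, members went both ways: 3 of 6 were lower in the 1343KO line at day 8 (Ndn, Peg12, Ube3a) and 1 at day 16 (Ndn). Of all genes tested 19.6% were lower at day 8 and 24.1% at day 16, so 1 of 6 at day 16 was not above that share. Snrpn, a paternally expressed gene for the spliceosomal protein SmN, was at 35.0 and 36.6 FPKM in WT at day 0, 27.0 and 24.7 at day 8, and 7.57 and 10.1 at day 16. The 1343KO libraries held 42.3 and 44.4, then 62.3 and 54.5, then 59.1 and 64.2. Each WT group lay below the one before it, and each later 1343KO group lay above day 0, with no overlap between the lines on any day. In WT it fell by 1.91 to day 16 (SE 0.13, adjusted p = 1.27e-06), and the 1343KO line was higher by 1.15 ± 0.13 at day 8 (adjusted p = 9.86e-05) and 2.68 ± 0.13 at day 16 (adjusted p = 3.15e-07). The interaction was 0.88 ± 0.18 to day 8 (adjusted p = 0.00634) and 2.41 ± 0.18 to day 16 (adjusted p = 1.25e-05).

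Smaller Snrpn changes were less stable. With median-of-ratios scaling its 1343KO rises did not pass at day 8 (adjusted p = 0.0929) or day 16 (0.0671). The 1343KO rise to day 8 also did not pass with TPM scaling (0.118). The WT fall to day 8 (-0.46 ± 0.13, adjusted p = 0.0137) did not pass without WT day 0 replicate 2 (0.0680) or day 8 replicate 2 (0.0804). The 1343KO rise to day 8 (0.42 ± 0.13, adjusted p = 0.0420) did not pass without its day 8 replicate 1 (0.199), its day 0 replicate 1 (0.152) or replicate 2 (0.105), or without several others (0.0551 to 0.0635). The rise to day 16 (0.50 ± 0.13, adjusted p = 0.0186) did not pass without the day 0 replicate 1 (0.0846) or 2 (0.0594) or the day 16 replicate 2 (0.103). Snrpn shares 589 exonic bases with the gene model Gm38393 on its strand, which was at 3.30 to 36.0 FPKM, so the split of reads between them is an estimate.

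Snurf, the upstream reading frame of the Snrpn transcript, has 216 annotated exonic bases and all of them are also in Snrpn. It was at or near 0 in all 6 WT libraries, with a highest value of 0.0131 FPKM, and at 10.2, 13.9 and 17.6 in 3 of the 1343KO libraries (day 0 replicate 1 and both of day 8), with the other 3 at or near 0. These values are given as a description, with no test, since Snurf entered the tested genes through its high 1343KO libraries and its sequence is shared. Ndn and Magel2, members of the MAGE family, and Peg12, a relative of the Frat genes, were low. Ndn was at 1.41 and 1.77 FPKM in WT at day 0, 6.02 and 5.995 at day 8, and 15.6 and 15.7 at day 16, against 2.25 and 1.47, 3.07 and 3.29, and 4.11 and 4.96 in the 1343KO line, and was lower there by -1.59 ± 0.18 at day 16 (adjusted p = 6.13e-05). Its 1343KO rise to day 8 (adjusted p = 0.0489) and its interaction to day 8 (0.0290) each did not pass without any 1 of several libraries, the highest being 0.246 without 1343KO day 0 replicate 2 for the rise and 0.0833 without WT day 0 replicate 1 for the interaction.

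Magel2 was at 0.175 and 0.225 FPKM in WT at day 0, 0.805 and 1.08 at day 8, and 0.584 and 1.04 at day 16, against 0.535 and 0.841, 0.575 and 0.543, and 1.55 and 1.06 in the 1343KO line. Its WT rises (0.69 ± 0.21 and 0.58 ± 0.21, adjusted p = 0.0229 and 0.0392) did not pass without WT day 0 replicate 1 (0.0871 and 0.125), replicate 2 (0.0673 and 0.0950), or the second replicate of day 8 (0.114) or of day 16 (0.186), and that of day 16 also without either 1343KO day 8 library (0.0504). Peg12 was at 0.971 and 1.25 FPKM in WT at day 0, 2.46 and 3.35 at day 8, and 2.78 and 3.21 at day 16, against 2.44 and 1.88, 0.910 and 2.01, and 2.67 and 2.41 in the 1343KO line. Its day 8 difference (-0.69 ± 0.25, adjusted p = 0.0466) did not pass without any 1 of 11 libraries, with the largest at 0.285 without 1343KO day 8 replicate 1. Its WT rises at day 8 (0.88 ± 0.25) and day 16 (0.92 ± 0.25) did not pass without WT day 0 replicate 1 (0.0739 and 0.0528), nor without the second replicate of day 8 (0.0938) or of day 16 (0.0527). Ube3a, the ubiquitin ligase whose maternal copy is the active one in neurons, was at 36.9 and 35.1 FPKM in WT at day 0, 42.2 and 42.5 at day 8, and 34.9 and 32.4 at day 16, against 41.4 and 32.3, 27.3 and 30.4, and 28.6 and 28.3 in the 1343KO line. Only its day 8 difference (-0.54 ± 0.11, adjusted p = 0.00412) kept its call without each library in turn among the Ube3a calls, since its 1343KO fall to day 16 was lost without the day 0 replicate 1 (0.262) and its interaction to day 8 without 1343KO day 8 replicate 1 (0.0881), and each without several more.

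Of the 6 tested members at single loci, Nnat stood apart from the start. Nnat, a paternally expressed proteolipid gene inside an intron of Blcap, was at 6.90 and 8.82 FPKM in WT at day 0, 123 and 126 at day 8, and 209 and 214 at day 16. The 1343KO libraries held 1.81 and 2.72, then 2.87 and 2.04, then 6.59 and 4.17, so that no 1343KO library reached the lowest WT library. The difference was -5.19 ± 0.21 at day 8 (adjusted p = 2.80e-07) and -5.08 ± 0.21 at day 16 (adjusted p = 1.50e-07). Its 1343KO rise to day 16 (0.95 ± 0.21, adjusted p = 0.00998) did not pass without the day 0 replicate 1 (0.0659) or the day 16 replicate 1 (0.0674). Blcap itself was at 10.7 and 11.7 FPKM in WT at day 0, 21.7 and 21.3 at day 8, and 43.9 and 32.4 at day 16, against 13.2 and 13.7, 17.0 and 16.7, and 22.5 and 15.1 in the 1343KO line. It differed between the lines at day 16 (-0.99 ± 0.18, adjusted p = 0.00138) and did not pass at day 8 (adjusted p = 0.174).

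Gnas, which encodes the stimulatory G protein subunit and other products, was at 96.6 and 100.9 FPKM in WT at day 0, 445 and 465 at day 8, and 585 and 634 at day 16, against 86.5 and 90.6, 161 and 149, and 203 and 228 in the 1343KO line. It rose in both lines and was lower in the 1343KO line by -1.55 ± 0.07 and -1.50 ± 0.07 at days 8 and 16. Slc38a4, a paternally expressed amino acid transporter, was at 48.7 and 47.2 FPKM in WT at day 0, 111.1 and 102.5 at day 8, and 91.1 and 89.3 at day 16, and stayed between 49.8 and 55.0 in the 1343KO line. Zrsr1, a splicing factor retrogene inside Commd1, stayed between 6.35 and 10.2 FPKM, and none of its 9 comparisons passed. Impact, a regulator of the GCN2 stress kinase pathway, was at 34.4 and 43.1 FPKM in WT at day 0, 41.6 and 48.2 at day 8, and 57.9 and 47.5 at day 16, against 44.9 and 42.2, 50.4 and 51.8, and 62.8 and 56.6 in the 1343KO line, with no difference between the lines that passed. Its rises to day 16 (0.44 ± 0.13 in each line, adjusted p = 0.0171 in WT and 0.0348 in the 1343KO line) did not pass without the first replicate of day 16 (0.130 and 0.168) or of day 0 (0.133 and 0.0798), nor in the 1343KO line without the second replicates (0.147 and 0.0680). Nap1l5, a nucleosome assembly family retrogene, was at 0.0978 FPKM or less in the 6 WT libraries and at 0.247 to 1.06 in the 1343KO line, and was not tested.

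Among the 5 members called at day 0, each difference was under 1 on the log2 scale except that of Nnat. Peg3 (0.80 ± 0.08), Rian (0.53 ± 0.08, adjusted p = 0.00706), Peg10 (0.46 ± 0.05, adjusted p = 0.00224) and Cd81 (0.40 ± 0.07, adjusted p = 0.0170) were higher in the 1343KO line, and Nnat (-1.45 ± 0.21, adjusted p = 0.00780) was lower. Cd81 did not pass without WT replicate 2 (0.121) or 1343KO replicate 2 (0.105), Rian without WT replicate 1 (0.0522), and Nnat without WT replicate 2 (0.0661). In a fit on the 4 day 0 libraries alone no member passed, with adjusted p from 0.159 for Peg10 to 0.217 for Rian.

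**Figure D4:**
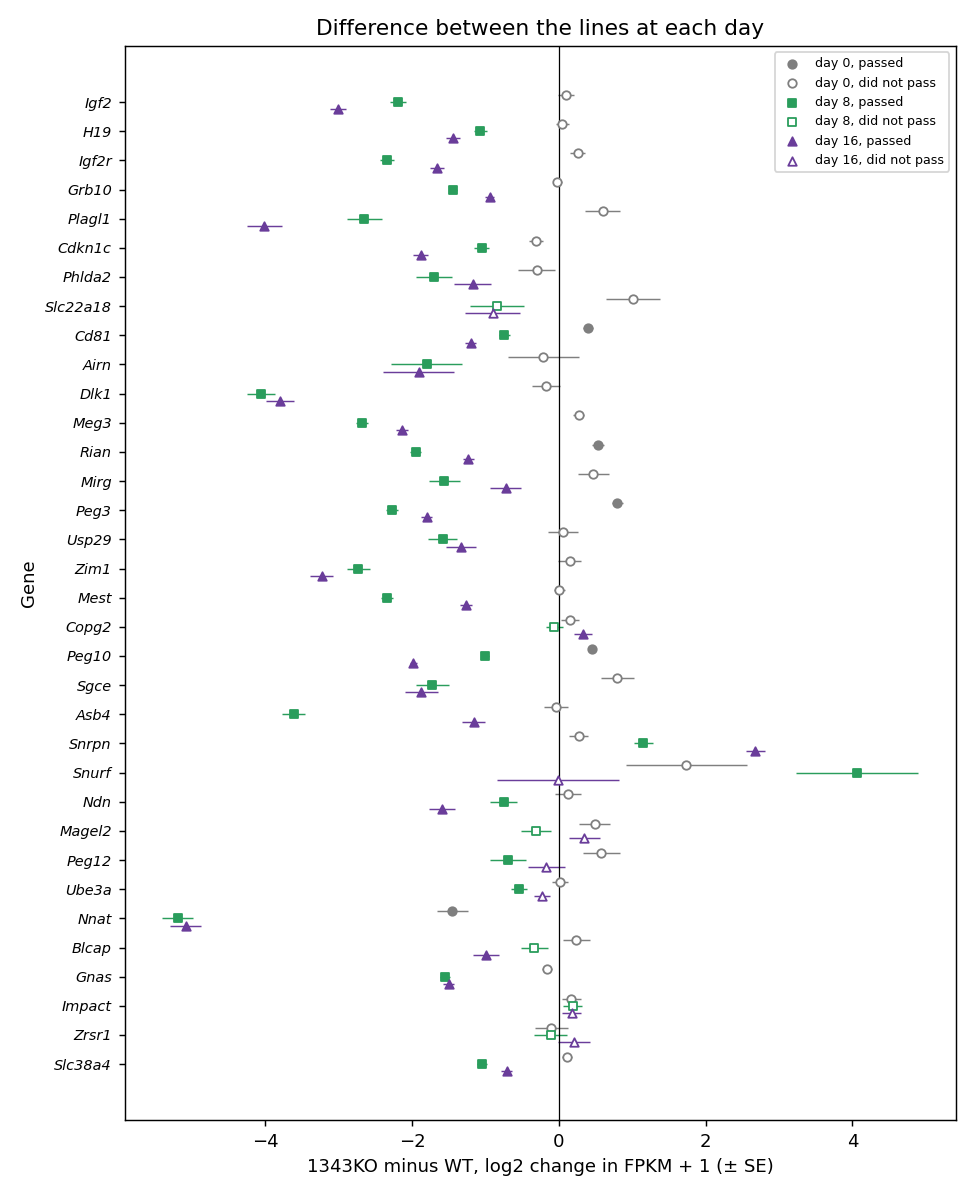
Difference between the lines (1343KO minus WT, log2(FPKM + 1), with SE bars) for the 34 tested members at day 0 (grey circles), day 8 (green squares) and day 16 (purple triangles), filled where the call passed. Grey points lie between -1.45 and 1.74, with a median of 0.15, while most green and purple ones lie left of 0, and Nnat reaches -5.19. The grey point at 1.74 and the filled green one at 4.06 are Snurf. It was tested only through its high 1343KO libraries, and its call is not used as a result.

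The trans-acting regulators of imprints were described as a second list of 23 genes, of which Ctcfl was not tested. In WT 15 of 22 fell and 3 rose at day 8, and 17 fell and 2 rose at day 16 (medians -0.75 and -1.43). Among 1343KO libraries 9 fell and 1 rose at day 8, and 9 fell and 4 rose at day 16. The 1343KO line was higher for 16 and lower for 1 (Tet3, a methylcytosine oxidase) at each later day, and 10 were higher at day 8 with TPM scaling. Over all genes 23.3% were higher and 19.6% lower at day 8, while the day 16 shares were 28.5% and 24.1%. In WT 24.5% of all genes fell at day 8 and 28.5% at day 16, and in the 1343KO line 8.51% and 8.60%. Rises took 26.8% and 32.7% of all genes in WT at these days, and 15.0% and 18.2% in the 1343KO line. At day 0, 2 were higher (Dnmt3b and Dppa3) and 2 lower (Dnmt3a and Ehmt2), and these counts were 0 to 1 in fits without some single libraries. Of all genes tested 1.59% were higher and 2.12% lower at day 0.

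Dnmt3l encodes a cofactor of the enzymes that lay down methylation in germ cells. It was at 130 and 120 FPKM in WT at day 0, 6.79 and 6.07 at day 8, and 4.48 and 2.82 at day 16. The 1343KO line had 127 and 119, then 117 and 111, then 87.9 and 86.8. Dnmt3b, a de novo DNA methyltransferase, was at 59.6 and 61.8 FPKM in WT at day 0, 19.6 and 19.5 at day 8, and 7.57 and 8.08 at day 16, against 86.1 and 85.1, 88.8 and 87.3, and 124 and 134 in the 1343KO line. For both genes the WT and 1343KO libraries lay far apart from day 8 on, with day 16 differences of 4.27 ± 0.15 for Dnmt3l (adjusted p = 5.49e-08) and 3.88 ± 0.07 for Dnmt3b (adjusted p = 3.43e-09). Zfp57 was at 183 and 180 FPKM in WT at day 0, 38.9 and 35.8 at day 8, and 41.8 and 36.8 at day 16, against 214 and 204, 77.7 and 77.6, and 62.0 and 65.3 in the 1343KO line. It fell in both lines and was higher in the 1343KO line by 1.04 ± 0.08 at day 8 and 0.68 ± 0.08 at day 16. Trim28, its corepressor, was higher there by 1.24 ± 0.05 and 1.60 ± 0.05, Hells, a chromatin remodeller that aids DNA methylation, by 1.33 ± 0.10 and 2.45 ± 0.10, and Tet1, a methylcytosine oxidase, by 2.11 ± 0.16 and 2.98 ± 0.16. These differences were in RNA of regulators, and methylation at the members was not measured here.

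**Figure D5:**
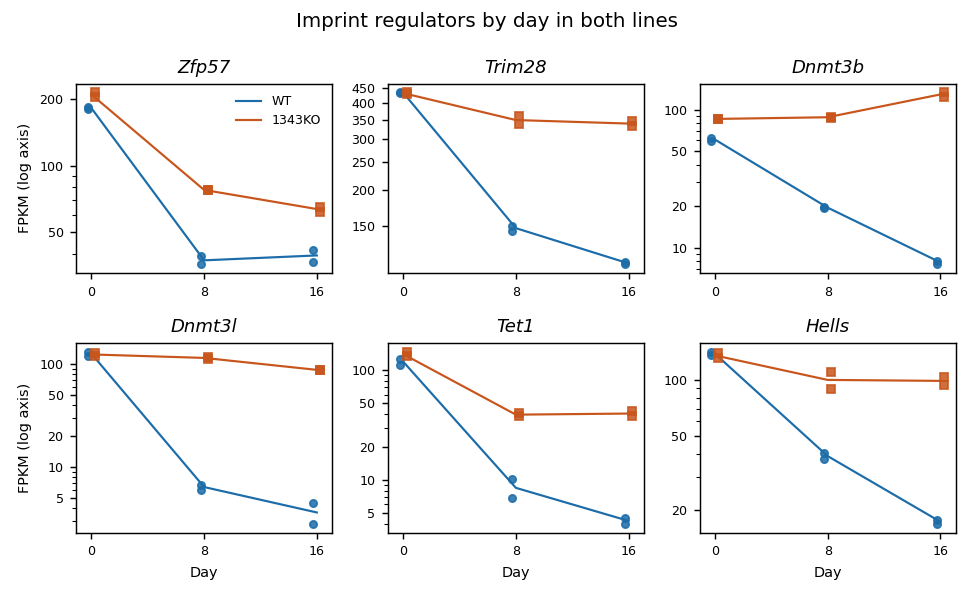
FPKM (log axis, with its own range in each panel) against day for 6 regulators of imprints, with points for the libraries and lines through the group means, WT in blue and 1343KO in orange. All 6 end higher in the 1343KO line, Dnmt3l at 87.9 and 86.8 against 4.48 and 2.82 FPKM.

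Other genes that carry or receive IGF signals formed a list of 17, of which Ins2 was not tested. In WT 11 of 16 rose and 1 fell at day 8, and 13 rose and 1 fell at day 16. The 1343KO line was lower for 11 and higher for 4 at day 8, and lower for 10 and higher for 2 at day 16. Over all genes 19.6% were lower and 23.3% higher at day 8, so the 4 of 16 higher were near that share, while the day 16 shares were 24.1% and 28.5%. In WT 26.8% and 32.7% of all genes rose at days 8 and 16, and 24.5% and 28.5% fell. The higher ones were Igf2bp1 and Igfbp2 at each day, with Igfbp3 and Igfbp6 at day 8, and the gene that fell in WT was Igf2bp1. Igfbp5, a secreted IGF-binding protein, was at 1.02 and 1.11 FPKM in WT at day 0, 51.6 and 51.1 at day 8, and 99.2 and 97.3 at day 16, against 1.22 and 0.975, 15.6 and 16.0, and 25.3 and 23.7 in the 1343KO line. Igfbp1, another such protein and a product of liver-like cells, was at 1.03 and 0.665, 6.61 and 7.03, and 139.8 and 134.2 FPKM in WT, and did not exceed 0.887 in the 1343KO line. Igfbp4 differed by -3.19 ± 0.16 at day 8 and -3.15 ± 0.16 at day 16, while Igfbp3 was higher in the 1343KO line at day 8 (0.76 ± 0.15) and lower at day 16 (-2.28 ± 0.15). Igf2bp2, an RNA-binding protein of Igf2 mRNA, rose in both lines (1.67 ± 0.09 and 1.41 ± 0.09 at day 8) and did not pass between them at day 16 (0.06 ± 0.09, adjusted p = 0.593).

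Markers of other cell types differed between the lines too, in more than one direction. The sum of 7 yolk sac markers (Afp, Apoa1, Apob, Ttr, Rbp4, Cubn, Dab2) was 132 and 141 FPKM in WT at day 0, 2404 and 2457 at day 8, and 11510 and 11530 at day 16, against 90.7 and 69.8, 159 and 145, and 101 and 94.1 in the 1343KO line. All 7 were lower in the 1343KO line at days 8 and 16. The sum of 7 mesenchyme markers (Col1a1, Col1a2, Col3a1, Dcn, Lum, Postn, Twist1) was 26.6 and 29.4, 225.3 and 248.7, and 3809 and 3933 FPKM in WT, against 29.2 and 23.1, 39.6 and 34.5, and 56.9 and 53.3, and again all 7 were lower at both later days. No yolk sac or mesenchyme marker was listed at 0, here meaning under 0.001 FPKM, in any library. Of 7 trophoblast markers, whose sums were 5.27 to 6.22 FPKM at day 0, 179 and 191 in WT and 35.6 and 34.9 in the 1343KO line at day 8, and 66.8 and 75.9 against 42.8 and 42.3 at day 16, Elf5 was listed at 0 in 7 libraries, Tpbpa in 5 of these 7, and Gcm1 in 2 WT libraries. Hand1 made up most of these sums in WT embryoid bodies (154 and 162 FPKM at day 8), and the list went both ways: of 6 tested, 2 were higher (Eomes, Tpbpa) and 2 lower (Cdx2, Hand1) in the 1343KO line at day 8, and 3 higher (those and Gcm1) and 2 lower (Cdx2, Hand1) at day 16. Leaving out the first day 8 replicate of either line left 1 higher at day 8, and leaving out the second day 16 replicate of either line left 1 lower at day 16. Neural marker sums were 27.4 and 28.8, 7.27 and 7.21, and 16.0 and 17.4 FPKM in WT by day, against 33.0 and 30.5, 15.4 and 14.2, and 22.3 and 23.8, with Dcx listed at 0 in 2 day 0 libraries. Of 6 neural markers tested, 5 were higher in the 1343KO line at day 8, where leaving out its day 8 replicate 1 left 1 and leaving out any other day 8 library left 3, and 3 were higher at day 16, with 0 lower at either day. Muscle marker sums were 1.94 and 2.21, 32.0 and 32.1, and 26.1 and 40.1 FPKM in WT, against 2.14 and 4.94, 6.86 and 6.33, and 38.8 and 40.2, with Myod1 and Myog listed at 0 in all 6 WT libraries. In the 1343KO line Myod1 was also listed at 0 in both day 0 replicates and day 16 replicate 2. Myog was so there in day 0 replicate 2, day 8 replicate 2 and day 16 replicate 1. Of 5 muscle markers tested, 3 were lower in the 1343KO line at day 8 (Tnnt2, Actc1, Myl7), and at day 16 there were 2 higher (Actc1, Myl7) and 1 lower (Tnnt2). At day 16 the Tnnt2 call was lost without the second replicate of either line, and 1 of the higher calls without WT replicate 1 or 1343KO replicate 2. Among the 16289 genes tested, calls above WT took 23.3% at day 8 and 28.5% at day 16, and calls below WT took 19.6% and 24.1%. With 5 or 6 genes in a list, none of the trophoblast, neural and muscle counts was tested against these shares. The trophoblast counts at days 8 and 16, and the neural and muscle counts at day 16, cannot be set apart from them. The part of cell makeup in the members' differences was not tested.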

How the data were processed

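RNA was measured in 12 libraries, 2 in each of 6 groups. The authors deposited FPKM values per gene, made with Cufflinks 2.1.1 on GRCm38 per the submitters' processing notes; aligner, annotation and library strand: not given in the sources used here. FPKM are estimates, so no count test was run, and reads shared by overlapping genes were divided by the authors' software. Values were tested as log2(FPKM + 1) with limma 3.58.1 (R 4.3.3) in 1 fit of all 6 groups, with 6 residual degrees of freedom, empirical Bayes moderation and Benjamini-Hochberg adjustment over the 16289 genes that reached 1 FPKM in 2 or more libraries. The script was tested on simulated data. Depth was estimated from the spacing of low values, of which 85.8% to 88.9% lay within 5% of whole fragments. Alternatives were another pseudocount, other filters, other scalings, a replicate block, robust moderation, fits on the compared groups and leaving out each library. All 37 members are accounted for, with library values for those that passed in any comparison, and up to 6 genes of each other list were named by smallest p. Genes behind a count of 5 or fewer were named after their values were seen. The members and lists were chosen with earlier results of these data known. Tables used Python 3.11.15, pandas 2.3.3 and numpy 2.4.6, and figures matplotlib 3.10.9.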

Additional observations from a re-analysis of the deposited data

Results flagged for a closer look

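The difference between the lines' changes passed limma's interaction test (Benjamini-Hochberg adjusted p under 0.05) for 27 members from day 0 to day 8 and for 25 from day 0 to day 16. Each value is the 1343KO change minus the WT change in log2(FPKM + 1). Among the growth genes it was -2.29 for Igf2, -1.12 for H19, -2.59 for Igf2r, -1.42 for Grb10, -3.25 for Plagl1, -0.74 for Cdkn1c, -1.39 for Phlda2, -1.85 for Slc22a18 and -1.15 for Cd81 from day 0 to day 8. To day 16 it was -3.11 for Igf2, -1.49 for H19, -1.91 for Igf2r, -0.92 for Grb10, -4.61 for Plagl1, -1.57 for Cdkn1c, -1.91 for Slc22a18 and -1.60 for Cd81. At the Dlk1-Meg3 locus it was -3.88 for Dlk1, -2.94 for Meg3, -2.48 for Rian and -2.03 for Mirg from day 0 to day 8. To day 16 it was -3.63 for Dlk1, -2.39 for Meg3, -1.76 for Rian and -1.19 for Mirg. At the Peg3 locus it was -3.07 for Peg3, -1.64 for Usp29 and -2.88 for Zim1 from day 0 to day 8. To day 16 it was -2.60 for Peg3, -1.39 for Usp29 and -3.38 for Zim1. On chromosome 6 it was -2.36 for Mest, -1.46 for Peg10, -2.52 for Sgce and -3.57 for Asb4 from day 0 to day 8. To day 16 it was -1.28 for Mest, -2.44 for Peg10, -2.67 for Sgce and -1.12 for Asb4. In the Snrpn-Ube3a domain it was 0.88 for Snrpn, -0.88 for Ndn, -1.28 for Peg12 and -0.56 for Ube3a from day 0 to day 8. To day 16 it was 2.41 for Snrpn and -1.72 for Ndn. Among the single loci it was -3.75 for Nnat, -1.40 for Gnas and -1.16 for Slc38a4 from day 0 to day 8. To day 16 it was -3.64 for Nnat, -1.24 for Blcap, -1.34 for Gnas and -0.82 for Slc38a4. Snrpn alone was positive among these members. The day 8 values of Phlda2, Slc22a18, Ndn, Peg12 and Ube3a, and the day 16 value of Slc22a18, did not pass without at least 1 single library, and the day 16 value of Asb4 did not pass with a pseudocount of 0.1 (adjusted p = 0.0599). For Slc22a18 the adjusted p was 0.0839 without WT day 0 replicate 2 at day 8 and 0.0561 at day 16. It was 0.0593 for Phlda2 and 0.0695 for Peg12 without WT day 0 replicate 1.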

How the results depend on the processing

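Of 215 calls of members over the 9 comparisons, 171 held under every alternative tried, 44 were lost under at least 1 (37 of them without some single library) and 0 reversed, while 21 of 91 results that did not pass did so under at least 1. Fits on the compared groups alone called 0 members higher and 0 lower between the lines at day 0, where limma called 0 of all genes and 2489 had an unadjusted p under 0.05. They called 1 higher at day 16, and in the 1343KO line 9 higher and 1 lower at day 8 and 1 lower at day 16. Members higher in the 1343KO line at day 8, with Snurf counted, numbered 2 in the main fit and 1 with a mean of at least 5 FPKM. At day 16 they numbered 1 with a pseudocount of 0.1, no filter, median-of-ratios scaling or TPM scaling. Members that fell in WT at day 8 numbered 0 with TPM scaling. Members that fell in the 1343KO line at day 16 numbered 1 with no filter, 4 with median-of-ratios scaling and 1 with the replicate block. Leaving out 1 library gave 0 to 1 lower at day 0, 1 to 2 higher at day 16, 0 to 1 fallen in WT at day 8, 11 to 14 risen in the 1343KO line at day 8, 1 to 3 fallen there at day 16, and 1 to 2 on the higher side of the interaction to day 8. The cause was not tested. Libraries share only a replicate number: over 15 pairs of groups the deviations of same-numbered libraries correlated at -0.04 to 0.04, and 0 were over 0.1. The smallest p of an exact permutation test of 2 against 2 libraries is 0.333, and every call depends on limma's pooled spread. Members under about 1 FPKM rest on few fragments.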
